A study of Mus musculus with 3 samples.

Results

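The complement system is a set of blood proteins, receptors and surface inhibitors, and its genes were followed here in mouse liver through warm ischemia and reperfusion. The members are 32 genes picked by symbol to cover the classical, lectin, alternative and terminal pathways, the receptors of the anaphylatoxins and the regulators. All 32 were present among the 23361 genes of the tables. In each of the 3 samples 31 of them were listed above 0.

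Messenger RNA was sequenced from livers of C57BL/6J mice of 8 to 10 weeks, labelled male, which had been fasted for 12 h and anesthetized with chloral hydrate. The sham sample came from mice with a laparotomy and no vascular clamp, the WI (warm ischemia) sample from mice whose left and median liver lobes were occluded for 90 min, and the IR (ischemia followed by reperfusion) sample from mice with the same occlusion and then 120 min of reperfusion, called sham, WI and IR below. The sham livers were taken at the time of the WI livers, so the IR sample has no sham control of its own time. Each group of 6 mice is represented by 1 library, and whether a library holds RNA from a single mouse or from a pool is not given in the sources used here. No difference below therefore has a replicate check, and no p-value is given. Levels are FPKM, fragments mapped to a transcript scaled by its length and by the total of mapped fragments, which allow for transcript length, so that genes can be compared with each other. The 95% bounds given beside some levels are those deposited with the tables. They come from a model of the fragment counts of a single library and do not cover the variation between mice.

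Complement works as a cascade of proteases. The classical pathway starts when C1q binds antibody or other targets, and the lectin pathway starts when collectins or ficolins bind sugars. Both cleave C4 and C2, the alternative pathway amplifies with factor B, and all routes meet at C3 and then at C5, after which C6, C7, C8 and C9 assemble a pore in the target membrane. Hepatocytes make most of the circulating components, whereas C1q, ficolin A and properdin come largely from macrophages, which in liver are the Kupffer cells. Small fragments of C3 and C5 act on receptors of leukocytes, and in ischemia and reperfusion complement is known as a source of inflammation.

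The 3 libraries differed in ways that the groups alone do not describe. The summed FPKM of all genes was 475754 in sham, 487912 in WI and 712423 in IR. Rescaling the samples to a common sum shifted the median difference between the IR and WI samples over all genes from 0.03 to -0.41 on the log2 scale, and rescaling by the median ratio shifted it to -0.01. Under at least 1 of 3 rescalings the sign of the difference changed for 1 member between the WI and sham samples, for 9 between the IR and WI samples and for 10 between the IR and sham samples, and those genes are named where their values are given. All 3 libraries are labelled male, yet Xist, the RNA that coats the inactive X chromosome of females, stood at 18.9 FPKM in sham, 20.1 in WI and 1.29 in IR. The Y-linked gene Eif2s3y was listed at 0 in the sham and WI samples and at 13.2 FPKM in IR, and Ddx3y at 0, 0.00849 and 8.58 FPKM. The sham and WI libraries thus go against their label and the IR library does not, so that sex markers, reperfusion and sampling time differ together between the IR library and the other two and cannot be told apart. Of the hepatocyte markers, Ttr stood at 4241, 4591 and 5765 FPKM in sham, WI and IR, and Apob at 379, 378 and 221 FPKM. Of the 7 with at least 1 FPKM in any sample, 4 were higher and 3 lower in the IR than in the sham sample. Alb was listed at 0 in each sample with the status of a locus holding too many fragments.

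Differences between samples are given on the log2(FPKM + 1) scale, which understates those of low genes, and a gene is counted as higher or lower when FPKM + 1 differed at least 2-fold. Counts over all genes cover the 10792 genes with at least 1 FPKM in at least 1 sample. The filter kept 30 of the 32 members and left out C7 and Cfd. Between the WI and sham samples none of the 30 members was higher and none was lower by this measure, against 0.751% and 1.1% of all genes, and none had bounds apart, against 0.676%. Between the IR and WI samples 4 members were higher (C6, C8b, C9 and C5ar1) and none was lower, against 5.78% and 1.43% of all genes. Between the IR and sham samples 5 were higher (C6, C8b, C9, C5ar1 and Clu), against 5.35% of all genes, and 5 were lower (C1qa, C1qc, Colec11, Fcna and Cfp), against 2.15%. With the samples rescaled to a common sum these last counts became 2 higher and 8 lower. Those between the IR and WI samples became 2 higher and 1 lower. The median over all genes moved down there as well, to -0.42 (IR and sham) and -0.41 (IR and WI). The share of all genes past 2-fold was not counted on that scaling. The bounds were apart for 2 members, C6 and C5ar1, between the IR and WI samples, against 3.61% of all genes, and for the same 2 between the IR and sham samples, against 3.82%. All other members had overlapping bounds in every comparison.

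The median difference of the members stayed close to that of all genes, at 0.09 against 0.02 between the WI and sham samples, 0.04 against 0.03 between the IR and WI samples and 0.11 against 0.05 between the IR and sham samples. From the sham through the WI to the IR sample 9 of the 30 members had ever lower levels (C1qa, C1qb, C1qc, Colec11, Fcna, Masp1, Cfp, Cd55 and Cfi), as had 20.6% of all genes. On the common sum ever lower levels were found for 10 members and for 40.0% of all genes. Ever higher levels were found for 14 members, as for 25.6% of all genes, but with the samples rescaled to a common sum the count of members was 5 and the share of all genes 5.49%.

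**Figure D1:**
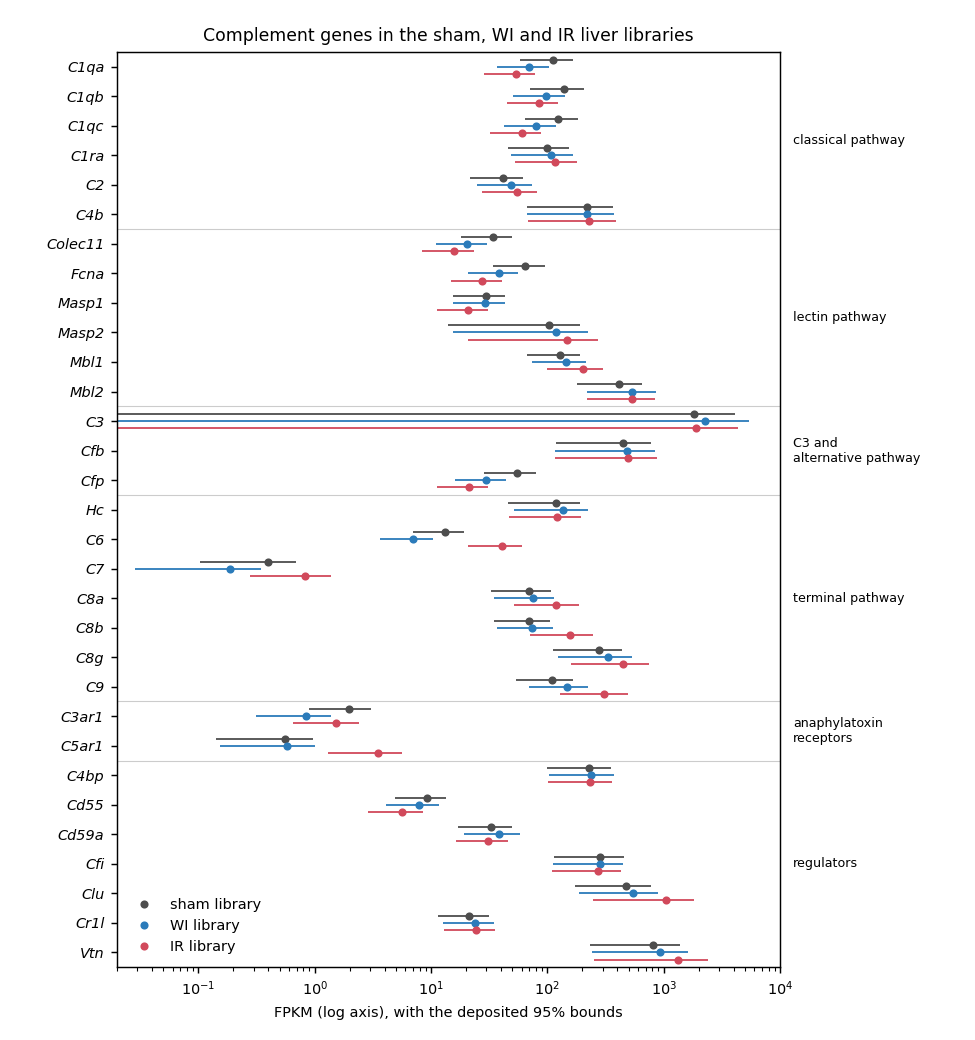
FPKM of 31 complement genes on a log axis in the sham, WI and IR libraries, with points for the deposited estimates and lines for their 95% bounds, grouped by pathway. Cfd is left out because it was listed at 0, and the lines of C3 run off the axis because their lower bound is 0. C6 and C5ar1 are the genes whose IR bounds clear those of the other samples, at 40.6 and 3.49 FPKM.

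**Figure D2:**
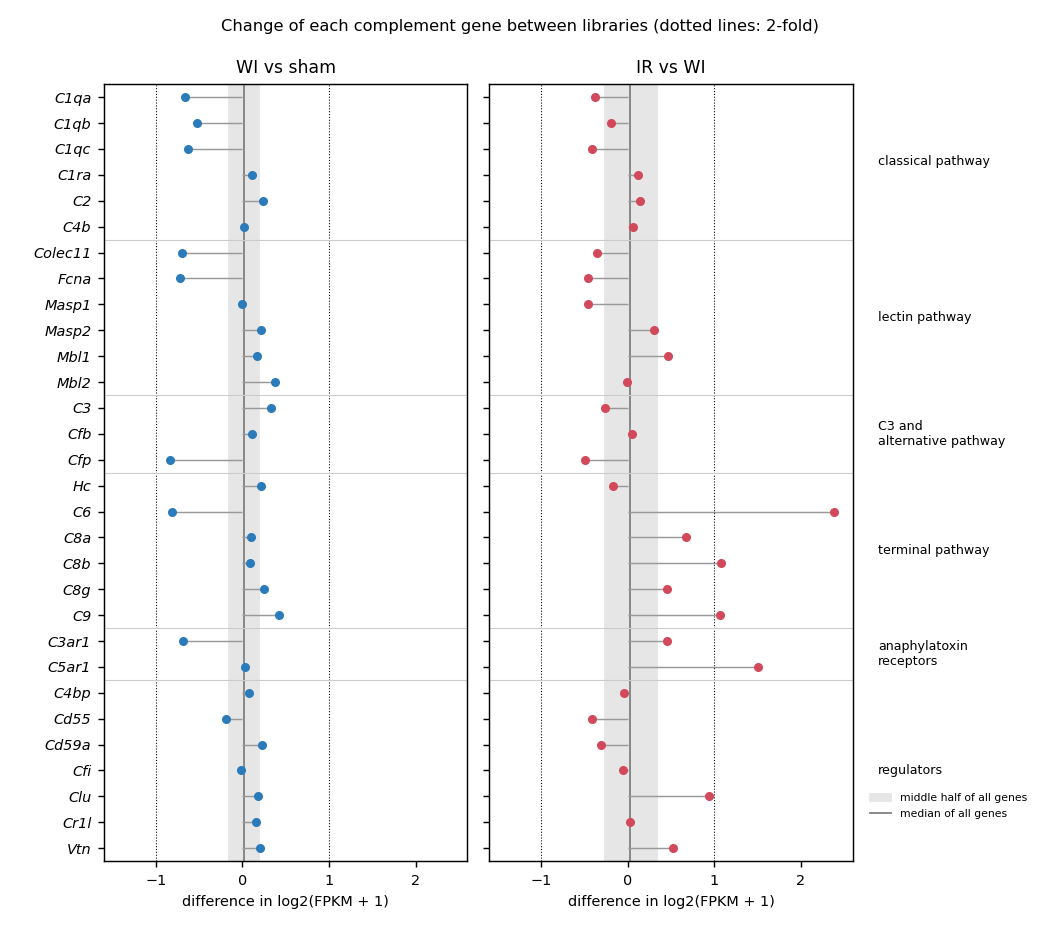
Difference in log2(FPKM + 1) of the 30 members past the filter between the WI and sham libraries (left) and between the IR and WI libraries (right), with the median and the interquartile band of all 10792 genes. No point lies beyond the 2-fold lines on the left, whereas C6 (2.38), C5ar1 (1.51), C8b (1.08) and C9 (1.07) do on the right. For 9 members on the right and 1 on the left the sign changes under another scaling.

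The classical pathway separated into the C1q chains, which were lower in the WI and IR samples than in the sham sample, and the downstream proteases and C4b, which differed little. C1q is a hexamer of triple chains encoded by C1qa, C1qb and C1qc. C1qa stood at 112 FPKM in sham (bounds 57.8 to 166), 70.1 in WI (37.2 to 103) and 53.7 in IR (28.7 to 78.6). C1qb stood at 139 FPKM (70.9 to 208), 96.8 (50.6 to 143) and 84.6 (44.6 to 125). C1qc stood at 125 FPKM (64.2 to 185), 80.2 (42.4 to 118) and 60.1 (32.1 to 88.1). The sham sample was the highest and the IR sample the lowest for each chain, with overlapping bounds. The differences between the WI and sham samples were -0.66, -0.52 and -0.63 for C1qa, C1qb and C1qc, larger in size than the -0.38, -0.19 and -0.41 between the IR and WI samples. The proportions of the chains moved slightly. C1qb made up 37.1% of the C1q FPKM in sham, 39.2% in WI and 42.6% in IR, while C1qa went from 29.7% through 28.4% to 27.0%.

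The C1q genes form a cluster on chromosome 4, in mm10, with 3624 bases between C1qb and C1qc and 3001 between C1qc and C1qa. The 250 bases before the start of C1qb (chr4:136886201-136886450, minus strand) and C1qc (chr4:136892915-136893164, minus strand) are shown because these neighbours were lower together. They come from RefSeq on GRCm38.p6, the assembly that mm10 is built from, which gave a promoter for 25 of the 32 members. Motifs were searched on both strands, and capitals mark a match wherever one was found. None of the motifs searched was found before C1qb or C1qc.
C1qb: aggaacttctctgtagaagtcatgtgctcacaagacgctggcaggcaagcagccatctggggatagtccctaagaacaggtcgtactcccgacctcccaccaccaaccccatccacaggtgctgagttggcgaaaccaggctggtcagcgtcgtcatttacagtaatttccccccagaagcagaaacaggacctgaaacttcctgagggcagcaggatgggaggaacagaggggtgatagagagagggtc
C1qc: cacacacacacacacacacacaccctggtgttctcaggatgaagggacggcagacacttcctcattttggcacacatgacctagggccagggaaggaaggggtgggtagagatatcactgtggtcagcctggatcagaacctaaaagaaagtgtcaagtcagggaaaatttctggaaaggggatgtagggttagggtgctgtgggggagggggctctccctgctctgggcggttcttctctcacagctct

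The motifs were those of STAT factors (TTCNNNGAA), C/EBP (TTGCNNAA or TTNNGCAA), NF-kB (GGGA or GGGG, any 2 bases, then TTCC), interferon response elements (GAAA on either side of any 2 bases) and HNF1 (GTTAAT, any base, then ATT), factors of the acute phase, of interferon and of hepatocyte identity. A STAT match was found before 4 of the 25 members (Colec11, Masp2, C7 and C8a), against 7.02% of 32851 promoters of the same length. A C/EBP match was found before 2 (C3 and C9), against 9.56%, an interferon match before 2 (Colec11 and Cd59a), against 2.98%, and an HNF1 match before 2 (Hc and C4bp), against 0.371%. The NF-kB letters were found before none of the 25, against 2.46% of all promoters. The STAT and interferon matches of Colec11 share bases. A match is a string of letters in this window and does not show that a factor binds there.

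C1ra, the protease that C1q activates first, was nearly level at 99.3 FPKM in sham, 107 in WI and 116 in IR. C4b, whose product is cleaved by the C1 complex, stood at 218 FPKM (bounds 66.3 to 370), 221 (66.7 to 376) and 230 (68.5 to 392). C2, the protease that joins C4b in the C3 convertase, was the lowest of the pathway in the sham sample at 41.7 FPKM (21.5 to 61.8), 49.2 (25.1 to 73.2) in WI and 54.5 (27.6 to 81.4) in IR. These small differences upward lay far inside the bounds, and the sign between the IR sample and both others changed for C1ra, C2 and C4b when the samples were rescaled to a common sum, as did that of C4b between the WI and sham samples. The near-identical copies C1rb and C4a were listed at 7.07, 6.45 and 6.78 FPKM and at 1.55, 1.23 and 2.62 FPKM in sham, WI and IR, and reads shared between the copies make the levels of C1ra and C4b uncertain to that extent.

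The lectin pathway showed a similar division, with a ficolin and a collectin lower and the mannose-binding lectins level or higher. Fcna, which encodes ficolin A, stood at 64.2 FPKM in sham (bounds 33.9 to 94.6), 38.5 in WI (20.6 to 56.3) and 27.7 in IR (14.9 to 40.6). Colec11, which encodes collectin-11, stood at 33.9 FPKM (18.2 to 49.5), 20.5 (11 to 30.1) and 15.9 (8.34 to 23.4). Both were lower in each later sample, by differences of -0.73 and -0.69 between the WI and sham samples and -1.18 and -1.05 between the IR and sham samples. Mbl1 and Mbl2 encode the mannose-binding lectins A and C, made by hepatocytes. Mbl1 stood at 128 FPKM in sham, 145 in WI and 201 in IR, a difference of 0.64 between the IR and sham samples. Mbl2, the highest of the pathway, stood at 413 FPKM (178 to 648), 539 (219 to 858) and 535 (219 to 850). The IR sample was the highest for Mbl1 but level with the WI sample for Mbl2, and rescaling to a common sum turned the sign of Mbl1 between the IR and WI samples and of Mbl2 between the IR and sham samples.

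The lectin pathway's proteases went different ways. Masp1, the protease that activates its partner, was the lowest of the pathway in the sham sample, at 29.4 FPKM (bounds 15.5 to 43.3), 29.3 in WI (15.5 to 43.2) and 21.0 in IR (11.2 to 30.8). Masp2, which cleaves C4 and C2, stood at 102, 119 and 148 FPKM, and its sign between the IR sample and both others changed with the scaling. The table gives Masp2 the same locus as Tardbp, so the assignment of fragments between these 2 genes is less certain, and its bounds were wide, 20.8 to 274 FPKM in IR. The stretch of its promoter with the STAT match (chr4:148602476-148602514, plus strand) is shown because Masp2 had the largest positive difference from the sham to the IR sample, 0.52 as deposited and -0.06 on the common sum, among the proteases that start the cascade.
Masp2: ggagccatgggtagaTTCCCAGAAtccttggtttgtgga

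C3, the protein on which all routes converge, had the highest level of the members in every sample and differed little as deposited. It stood at 1823 FPKM in sham (bounds 0 to 4119), 2286 in WI (0 to 5438) and 1907 in IR (0 to 4314), and ranked 34, 29 and 51 among all genes. Relative to the level, these bounds were the widest of the members in each library. The WI sample was the highest, by 0.33 over the sham sample, and between the IR and sham samples the difference was 0.06, with a sign that changed with the scaling. Between the IR and WI samples the difference of C3 was -0.26 as deposited. On the common sum it was -0.81, against a median of -0.41 over all genes. Cfb, factor B of the alternative pathway and an acute phase gene, stood at 447, 481 and 497 FPKM in sham, WI and IR. Its difference between the IR and sham samples was 0.15, and its sign between the IR sample and both others changed with the scaling. C2 and Cfb are related genes that lie 87 bases apart on chromosome 17, and both were slightly higher in each later sample as deposited. Their differences between the IR and sham samples were 0.38 and 0.15, and the sign of both turned on the common sum.

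The C/EBP match before C3 began 45 bases from the start, in the stretch printed here (chr17:57228159-57228196, minus strand), because C/EBP factors are known from textbook work to drive C3 in the acute phase.
C3: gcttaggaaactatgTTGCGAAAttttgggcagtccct

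Cfp and Cfd complete the alternative pathway. Cfp, on the X chromosome, encodes properdin, which stabilizes the convertase. It stood at 54.4 FPKM in sham (bounds 28.7 to 80.0), 30.0 in WI (16.1 to 43.8) and 21.0 in IR (11.3 to 30.8). Its difference of -0.84 between the WI and sham samples and of -1.33 between the IR and sham samples were the most negative of the 30 members. Cfd, which encodes factor D and is known chiefly from fat, was listed at 0 in all 3 samples. The table gave Cfd the same merged locus of 672333 bases as 46 other genes, of which Bc1 and Fgf22 were also at 0. A value of 0 there can be a failed estimate, so no level of Cfd is drawn from it.

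The members that macrophages mainly make or display were set beside markers of Kupffer cells, since a bulk sample mixes all liver cells. Of the 7 members on that list (C1qa, C1qb, C1qc, Fcna, Cfp, C3ar1 and C5ar1), 6 were lower in the WI than in the sham sample, with a median difference of -0.66 against 0.02 over all genes. Of all 10792 genes, 5107 were lower in that comparison. The FPKM of the 7 members summed to 497 in sham, 317 in WI and 252 in IR. Of the Kupffer cell and macrophage markers, 10 of 10 past the filter were lower in the WI than in the sham sample. At least 2-fold lower were 3 of them (Cd163, Cd5l and Emr1), against 1.1% of all genes. In the IR sample 9 of 10 were lower than in the sham sample, 7 at least 2-fold, against 2.15% of all genes. None of these markers was at 0, and they summed to 612 FPKM in sham, 325 in WI and 240 in IR, or 53.1% and 39.1% of the sham sum. Clec4f, a lectin particular to Kupffer cells, stood at 115, 65.3 and 32.7 FPKM. Marco, a scavenger receptor, went another way, at 20.9, 12.6 and 25.3 FPKM, and Cd68 at 18.5, 12.3 and 18.5 FPKM. The sum of the complement members and the sum of the markers were thus both lower in the WI sample and lower again in the IR sample, to 50.7% and 39.1% of sham. Fewer macrophages and less RNA per macrophage cannot be told apart in bulk samples, and the part of the markers in the complement differences was not tested. From WI to IR, 5 of the 7 members were lower and C3ar1 and C5ar1 were higher. The sham and WI libraries were alike in Xist and in the near absence of Y-linked RNA, while several sex-biased liver genes differed between them. In the WI sample 4 of 10 female-biased and 2 of 10 male-biased genes were at least 2-fold lower, against 1.1% of all genes. The part of sex in this step was not tested.

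**Figure D3:**
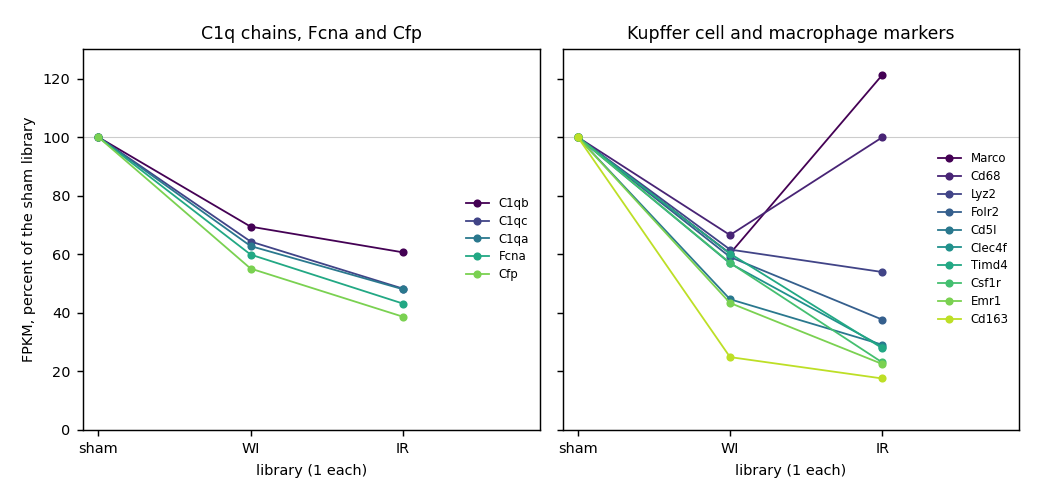
FPKM as percent of the sham library for C1qa, C1qb, C1qc, Fcna and Cfp (left) and for 10 Kupffer cell and macrophage markers (right) in the sham, WI and IR libraries, 1 library each, with lines joining the values of a gene. The 5 complement genes shown and 8 of the 10 markers step down from sham through WI to IR, while Marco and Cd68 return upward in the IR library. C3ar1 and C5ar1, the other members on the macrophage list, are not drawn and were higher in the IR than in the WI library, by 0.45 and 1.51.

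Markers of 2 other non-parenchymal cell types were mostly lower in the WI sample and those of cholangiocytes were mostly higher. The 7 sinusoidal endothelial markers were lower in 7 of 7 cases and summed to 160 FPKM in sham, 121 in WI and 120 in IR. From WI to IR 5 of the 7 were lower and 2 higher, and the IR sum holds Lyve1, at 11.2, 2.73 and 33.4 FPKM. The 7 stellate cell markers were lower in the WI than in the sham sample in 6 of 7 cases and summed to 221, 154 and 161 FPKM. Of the 4 cholangiocyte markers, the 3 past the filter were higher in the WI than in the sham sample. Of these, Krt19 and Sox9 were low in sham, at 0.482 and 0.275 FPKM. Krt7, below the filter, was lower, at 0.484 FPKM in sham and 0.386 in WI. The 4 summed to 2.48, 3.29 and 6.92 FPKM in sham, WI and IR. Of the hepatocyte markers 4 of 7 were lower in the WI than in the sham sample, with a median difference of -0.01. The part of these markers in the lower level of Colec11 was not tested.

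The terminal pathway held 3 of the 4 members that were at least 2-fold higher in the IR than in the WI sample, the other being the receptor C5ar1. Its 6 members past the filter had a median difference of 0.87 between the IR and WI samples, against 0.03 over all genes. At least 2-fold higher were 3 of the 6 (C6, C8b and C9), against 5.78% of all genes. The median of the 2 anaphylatoxin receptors was 0.98 in the same comparison, but C5ar1 passed the filter only through its IR level, which partly fixes that value. With the samples rescaled to a common sum the median of the 6 terminal members was 0.33 against -0.41 over all genes. Of these members C6 alone then stayed past 2-fold, with C8b at 0.54 and C9 at 0.52. Between the WI and sham samples the median was 0.16 and 5 of the 6 were higher, none at least 2-fold. The exception, C6, was lower in the WI than in the sham sample.

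C6, which binds the larger C5 fragment and begins the pore, had the largest difference of all members on the log2(FPKM + 1) scale. It stood at 13.1 FPKM in sham (bounds 7.04 to 19.2), 6.99 in WI (3.67 to 10.3) and 40.6 in IR (20.9 to 60.2). The IR level was 5.80 times the WI level and 3.10 times the sham level, and its bounds cleared those of both, while the sham and WI bounds overlapped. C7, its neighbour 184716 bases away on chromosome 15, stayed below 1 FPKM at 0.400 FPKM in sham (bounds 0.104 to 0.695), 0.188 in WI (0.0286 to 0.348) and 0.825 in IR (0.279 to 1.37). C7 followed the same order as C6, lowest in the WI sample and highest in the IR sample, at a level too low to pass the filter.

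C8 is built from an alpha, a beta and a gamma chain, encoded by C8a, C8b and C8g. C8b stood at 69.7 FPKM in sham (bounds 34.8 to 105), 74.2 in WI (36.9 to 112) and 158 in IR (70.3 to 245). C8a stood at 69.8, 74.8 and 120 FPKM. C8g, a lipocalin unlike the pore-forming chains and the highest gene of the pathway, stood at 277 FPKM (112 to 441), 330 (125 to 535) and 451 (161 to 742). The IR sample was the highest for each chain, by 1.08 over the WI sample for C8b, 0.67 for C8a and 0.45 for C8g, and the sign of C8g turned on the common sum. The chains differed in proportion as well. C8b made up 16.8% of the C8 FPKM in sham, 15.5% in WI and 21.7% in IR, while C8a held 16.8%, 15.6% and 16.4%. C8a and C8b lie 11131 bases apart on chromosome 4, and C8g on chromosome 2 shares its listed locus with Fbxw5, which makes its value less certain.

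C9, the component that polymerizes into the ring of the pore, stood at 110 FPKM in sham (bounds 54.1 to 166), 147 in WI (70.0 to 224) and 309 in IR (128 to 490). It was higher in each later sample, by 0.42 in the WI over the sham sample and 1.07 in the IR over the WI sample, with overlapping bounds. Hc, which encodes C5, the component whose cleavage opens the terminal pathway, differed little as deposited. It stood at 118 FPKM (45.9 to 190), 137 (51.2 to 222) and 122 (47.1 to 196), and the sign of its difference of 0.05 between the IR and sham samples changed with the scaling. As deposited, the members at least 2-fold higher in the pathway all act after C5, and on the common sum C6 alone was past 2-fold between the IR and WI samples.

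The 250 bases before C6 (chr15:4726960-4727209, plus strand), C8b (chr4:104766067-104766316, plus strand) and C9 (chr15:6445096-6445345, plus strand) are shown, since these were the 3 terminal genes at least 2-fold higher in the IR than in the WI sample. No motif searched was found before C6 or C8b, and before C9 a C/EBP match in capitals began 132 bases from the start.
C6: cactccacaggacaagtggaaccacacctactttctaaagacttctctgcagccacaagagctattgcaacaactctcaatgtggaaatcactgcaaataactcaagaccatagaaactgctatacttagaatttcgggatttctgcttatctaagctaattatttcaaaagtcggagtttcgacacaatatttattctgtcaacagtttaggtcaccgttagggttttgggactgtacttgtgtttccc
C8b: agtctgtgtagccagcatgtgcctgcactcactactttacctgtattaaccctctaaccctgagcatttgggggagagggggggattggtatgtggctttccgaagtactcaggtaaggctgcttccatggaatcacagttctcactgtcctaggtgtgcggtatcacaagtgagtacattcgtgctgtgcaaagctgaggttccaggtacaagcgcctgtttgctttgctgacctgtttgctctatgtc
C9: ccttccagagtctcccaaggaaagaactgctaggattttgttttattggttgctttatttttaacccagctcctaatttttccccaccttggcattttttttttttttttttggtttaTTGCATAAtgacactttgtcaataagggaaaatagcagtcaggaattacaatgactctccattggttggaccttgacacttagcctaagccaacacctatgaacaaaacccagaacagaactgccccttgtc

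C8a, the neighbour of C8b, had a STAT match 228 bases from its start (chr4:104876603-104876641, minus strand), whereas that of Masp2 began 53 bases from its start. Hc had an HNF1 match 78 bases from its start (chr2:35061466-35061505, minus strand). The letters of Hc read on the opposite strand from those of C4bp shown later. Neither gene was past 2-fold in any comparison.
C8a: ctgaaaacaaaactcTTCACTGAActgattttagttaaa
Hc: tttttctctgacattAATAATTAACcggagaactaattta

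In mice the terminal pathway is known to be more active in males than in females, and the libraries differed in sex markers in the same direction. Of 10 liver genes known to be higher in males, 9 were at least 2-fold higher in the IR than in the WI sample. The share of all genes was 5.78%. Among the 9, Cyp4a12a, Hsd3b5, Moxd1 and Scara5 passed the filter only through their IR level, so the filter partly fixes that count. The tenth, Mup7, was listed at 0 in the IR sample with the status of a locus holding too many fragments. The median difference of the 10, with Mup7 taken at that 0, was 4.0. Cyp2d9, a male-biased cytochrome P450, stood at 38.3 FPKM in sham, 38.5 in WI and 739 in IR. Of 10 genes known to be higher in females, 3 were at least 2-fold lower in IR than in WI, against 1.43% of all genes. Between IR and sham 7 were so, against 2.15%. Between the sham and WI libraries, alike in Xist, 4 of these 10 were already at least 2-fold lower in WI, against 1.1% of all genes. Of the 4, 3 had bounds apart, and among the 3 lower in IR than in WI none had bounds apart. The male-biased list summed to 707 FPKM in sham, 321 in WI and 21229 in IR, and the female-biased list to 2270, 1528 and 886 FPKM. For C6, C8a, C8b, C8g and C9, reperfusion and the sex markers of the library cannot be told apart.

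**Figure D4:**
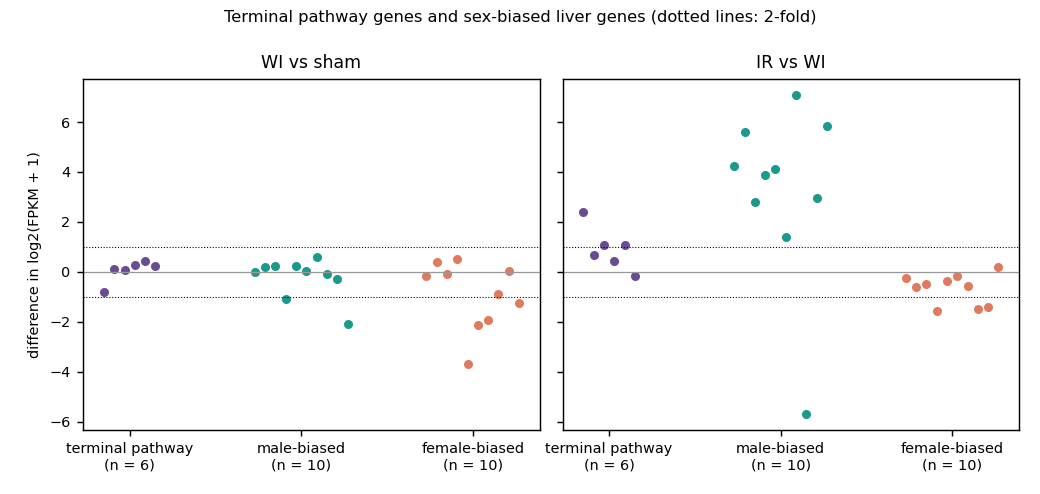
Difference in log2(FPKM + 1) between the WI and sham libraries (left) and the IR and WI libraries (right) for 6 terminal pathway genes, 10 male-biased and 10 female-biased liver genes, each point a gene. On the right 5 of the 6 terminal genes and 9 of the 10 male-biased genes are above 0 and 9 of the 10 female-biased genes are below it. C8g is the terminal gene whose sign on the right turns on the common sum, and the male-biased gene at -5.69 is Mup7, listed at 0 in the IR library. The male-biased genes Cyp4a12a, Hsd3b5, Moxd1 and Scara5 passed the filter only through their IR level.

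The anaphylatoxin receptors were the lowest of the members that passed the filter. C5ar1, the receptor of the C5 fragment C5a on neutrophils and macrophages, stood at 0.551 FPKM in sham (bounds 0.141 to 0.960), 0.581 in WI (0.153 to 1.01) and 3.49 in IR (1.30 to 5.68). The IR level was 6.00 times the WI level, with bounds apart from those of both other samples, and stayed at least 2-fold higher on the FPKM + 1 scale under each of the 3 rescalings. C3ar1, the receptor of C3a, stood at 1.96 FPKM (0.887 to 3.04), 0.846 (0.311 to 1.38) and 1.53 (0.655 to 2.40). It was lowest in the WI sample, and its bounds overlapped throughout. On the FPKM scale without the added 1 its sham level was 2.32 times the WI level.

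Markers of neutrophils moved with C5ar1. The tables held 9 neutrophil markers, of which 6 passed the filter. All 6 were at least 2-fold higher in the IR than in the WI sample, against 5.78% of all genes. Of these, Cxcr2 and Ngp passed only through their IR level, as C5ar1 did, so the filter partly fixes that count, and the 3 others (Camp, Mpo and Elane) stayed near 0. The 9 summed to 25.9 FPKM in sham, 19.6 in WI and 462 in IR. S100a8, a calcium-binding protein abundant in neutrophils, stood at 13.6, 9.17 and 212 FPKM, and Cxcr2, their chemokine receptor, at 0.127, 0.163 and 3.65 FPKM. Mpo and Elane, granule genes of immature neutrophils, were near 0, at 0.0598, 0.0131 and 0 FPKM and at 0.0955, 0 and 0.118 FPKM. Ngp, which also encodes a neutrophil granule protein, was higher in the IR than in the WI sample, by 1.22 with bounds apart. The granule genes on the list thus did not go 1 way. C5ar1 went with the neutrophil list and against the macrophage list in the IR sample, and the part of either cell type in its level was not tested.

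Among the regulators Clu and Vtn, the fluid-phase inhibitors of the pore, were higher and Cd55 lower in the IR than in the sham sample, and only Clu was past 2-fold as deposited. Clu encodes clusterin, a chaperone that keeps the assembling pore from inserting into membranes. It stood at 478 FPKM in sham (bounds 173 to 784), 541 in WI (186 to 896) and 1039 in IR (249 to 1829). Vtn encodes vitronectin, which blocks the same step, and was the highest regulator in the sham sample at 804 FPKM (231 to 1377), 924 (240 to 1608) in WI and 1326 (252 to 2401) in IR. Both were highest in the IR sample, Clu by 1.12 and Vtn by 0.72 over the sham sample, with overlapping bounds, and the sign of Vtn between the IR and WI samples turned on the common sum. Clu was past 2-fold over the sham sample but not over the WI sample, where its difference was 0.94. Its difference over the sham sample was 0.54 on the common sum and 0.72 without Mup and Serpina1 genes, short of 2-fold. Cd55, described below, was past 2-fold lower on the common sum, at -1.11.

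C4bp and Cfi control C4b and C3b in the fluid phase. C4bp, the C4b-binding protein, stood at 226, 238 and 231 FPKM in sham, WI and IR. Cfi, factor I, the protease that inactivates C3b and C4b, stood at 285, 281 and 270 FPKM. Between the IR and sham samples they differed by 0.03 and -0.08, and the sign of C4bp changed there with the scaling. The stretch with the HNF1 match 64 bases before the start of C4bp (chr1:130661658-130661697, minus strand) is shown beside that of Hc above. Both belong to hepatocyte genes that differed little among the samples as deposited.
C4bp: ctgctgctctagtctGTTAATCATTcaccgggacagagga

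The membrane-bound regulators were lower in level. Cd55, the decay-accelerating factor that takes convertases apart, was the lowest regulator at 9.23 FPKM in sham (bounds 4.88 to 13.6), 7.94 in WI (4.15 to 11.7) and 5.69 in IR (2.88 to 8.50). Cd59a, which stops C9 from polymerizing on host cells, stood at 33.1, 38.8 and 31.2 FPKM. Cr1l, the rodent convertase inhibitor also called Crry, stood at 21.3, 23.8 and 24.3 FPKM. Cd55 was lower in each later sample, by -0.61 between the IR and sham samples, while Cd59a differed most between the IR and WI samples, by -0.30. Cr1l differed by 0.18 between the IR and sham samples, and its sign between the IR sample and both others changed with the scaling. The copy Cd59b was listed at 1.35, 2.24 and 3.26 FPKM, and reads shared between the copies make the level of Cd59a uncertain to that extent.

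Added up, the members held 6348 FPKM in sham, 7139 in WI and 8105 in IR, or 1.33%, 1.46% and 1.14% of all FPKM. The sum was highest in the IR sample, but its share of all FPKM was lowest there. The terminal pathway took 10.4% of the members' FPKM in sham, 10.8% in WI and 14.8% in IR, and the regulators 29.3%, 28.8% and 36.1%. The classical pathway went from 11.6% through 8.75% to 7.40%, and C3 and the alternative pathway from 36.6% through 39.2% to 29.9%. Weight thus lay more on the terminal components and their fluid-phase inhibitors in the IR sample and less on C1q and C3. These shares do not depend on the scaling of the samples.

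**Figure D5:**
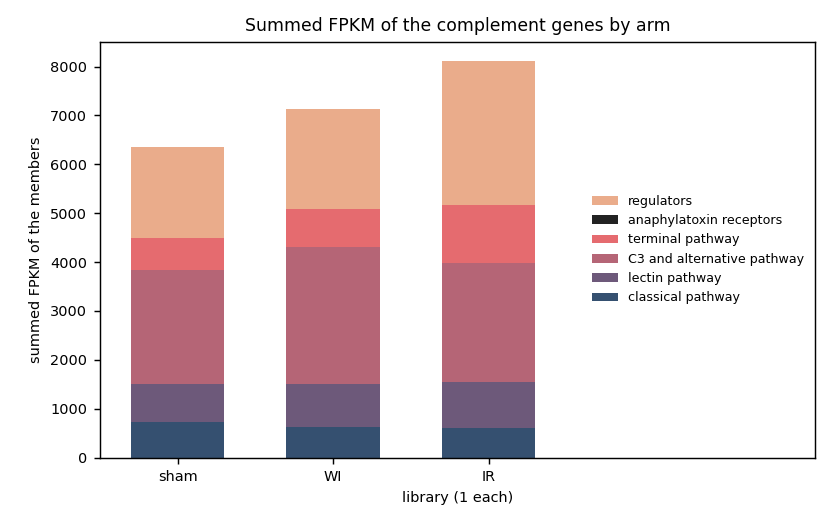
Summed FPKM of the complement genes in the sham, WI and IR libraries, 1 library each, stacked by pathway from 0. The total is 6348, 7139 and 8105 FPKM. The terminal pathway adds 657, 770 and 1201 FPKM and the regulators 1857, 2055 and 2927, while the receptors, at 1.43 to 5.02, are too low to see.

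A list of 32 further complement genes, which holds serum inhibitors, receptors and relatives of the members, had 27 in the tables and 21 past the filter. None was at least 2-fold apart between the WI and sham samples, where 0.751% of all genes were higher and 1.1% lower. Between the IR and WI samples 3 were higher (Cd93, Itgam and Susd4), against 5.78% of all genes, and 1 was lower (Vsig4), against 1.43%. Between the IR and sham samples 1 was higher (Susd4), against 5.35%, and 2 were lower (Vsig4 and Colec10), against 2.15%. Vsig4, the complement receptor of the immunoglobulin family by which Kupffer cells take up opsonized particles, stood at 67.8 FPKM in sham (bounds 35.6 to 100), 35.1 in WI (18.9 to 51.4) and 12.4 in IR (6.37 to 18.4). Colec10, which encodes the partner of collectin-11, stood at 12.5, 8.77 and 5.06 FPKM. Both were lower in each later sample, as were Fcna, Colec11 and the C1q chains. Itgam, the alpha chain of complement receptor CR3 on neutrophils and macrophages, stood at 0.615, 0.424 and 1.91 FPKM, and Cd93, an endothelial and myeloid receptor, at 1.55, 0.762 and 3.70 FPKM. Susd4, a complement inhibitor, stood at 0.810, 0.665 and 2.80 FPKM, so that the genes higher in the IR sample were all low ones, and Susd4 and Itgam passed the filter only through it. Serping1, the C1 inhibitor of serum, differed little at 364, 394 and 417 FPKM.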

How the data were processed

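Liver RNA of the sham, WI and IR groups was sequenced as 1 library per group. Per the labels and the methods of the study, the authors aligned read pairs to mm10 with TopHat2 2.0.9 and computed FPKM per gene with Cuffdiff of Cufflinks 2.0.2 at default settings, and the deposited tables hold the FPKM with its 95% bounds and a status. No fragment counts are held in them and low values show no whole-fragment steps, so the number of fragments behind each value cannot be given from these files. The width of the bounds over 4, taken as a standard error, had a median over genes of 26.0% of the FPKM in each library.

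FPKM + 1 was put on the log2 scale with Python 3.11.15, numpy 2.4.6 and pandas 2.3.3, and samples were compared in pairs over genes with at least 1 FPKM in at least 1 sample. Calls need a 2-fold difference. The script that makes these calls was tested on simulated data. With 1 library per group no statistical test between samples was made. The members, the gene lists and the rules were chosen with earlier results of these data known. All members are named, with bounds for those that differed at least 2-fold in FPKM + 1 or had bounds apart, for C3 and Hc, and for the highest and lowest of each pathway in the sham sample. Alternatives were 2 other pseudocounts, 2 other filters, 3 rescalings, 2 other folds and the bounds. Coordinates of genes are those of the tables in mm10, counted from 1, and promoters are those of RefSeq on GRCm38.p6. MicroRNA profiles were not analysed here.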

Additional observations from a re-analysis of the deposited data

How the results depend on the processing

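With 1 library per group no library could be left out, and every value describes these libraries only. No paired analysis was possible because each group has 1 library. Between the WI and sham samples the count of members at least 2-fold apart went from 0 to 1 (C3ar1) with a pseudocount of 0.1 and to 1 with 0.01, and to 7, all lower, at 1.5-fold. The share of all genes past 2-fold was not counted under other pseudocounts or rescalings, nor the share past other folds. Between the IR and WI samples the count of 4 became 2 when samples were rescaled to a common sum without Mup and Serpina1 genes, 1 at 4-fold and 2 by bounds that do not overlap, and the median over members went from 0.04 to -0.50 on the common sum and to -0.31 without Mup and Serpina1 genes. Between the IR and sham samples the count of 10 became 16 at 1.5-fold, 0 at 4-fold and 2 by the bounds, and the median went from 0.11 to -0.47 on the common sum and to -0.28 without Mup and Serpina1 genes. The medians over all genes went the same way, to -0.41 and -0.26 between the IR and WI samples. The 14 member differences past 2-fold were followed over 5 alternatives, giving 70 values. None changed sign and 61 stayed past 2-fold. The 9 others were those of C8b, C9 and Clu, 5 on the common sum and 4 without Mup and Serpina1 genes. C8b between the IR and WI samples was then 0.54 and 0.72, and C9 was 0.52 and 0.71. The files hold no fragment counts, so the depth behind C7 and the receptors, at a few FPKM or less, cannot be given from them.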
